A study of Mus musculus with 8 samples.

Results

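The CCN genes encode small secreted proteins of the extracellular matrix that signal to cells instead of bearing load. The genes described here were every probe whose symbol in the deposited table was Cyr61, Ctgf, Nov, Wisp1 or Wisp2, the older names of CCN1 to CCN5. The rule found 7 of the 25697 probes on the array. Cyr61 (Ccn1) had 3 probes, Wisp1 (Ccn4) had 2, and Ctgf (Ccn2) and Wisp2 (Ccn5) had 1 each. Nov (Ccn3) was not analysed here. All of the 4 genes with a probe were among the 8146 genes tested.

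RNA came from the left ventricle, with the septum, of 4 heterozygous knock-in mice and 4 wild-type littermates, all 12 months old and of Swiss Agouti background. The heterozygotes carried 1 copy of the knock-in allele, and the wild-type littermates carried none. Each mouse gave 1 Illumina bead array, and the labels call the mice biological replicates. The study's title names ventricular fibrosis with age in these knock-in mice, and the comparison asks what these matrix genes showed beside it.

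CCN proteins share domains that resemble insulin-like growth factor binding proteins, von Willebrand factor type C repeats and thrombospondin repeats, followed in most members by a C-terminal cystine knot. They act through integrins, LRP receptors and heparan sulfate proteoglycans. Cyr61 is an immediate early gene and Ctgf a target of TGF-beta, and both are textbook targets of the Hippo pathway effectors YAP and TAZ with the TEAD factors. In injured hearts Ctgf is widely used as a marker of fibrosis. Wisp1 was found as a Wnt1-induced gene, and Wisp2 lacks the C-terminal domain and has been reported to oppose cardiac fibrosis in mice.

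By the RefSeq annotation of assembly GRCm38.p6, Cyr61 lies at chr3:145646971-145649985, Ctgf at chr10:24595442-24598683, Wisp1 at chr15:66891369-66923201 and Wisp2 at chr2:163820752-163833146. Where within these genes the probes bind was not analysed here. The 250 bases before the Cyr61 start, chr3:145649986-145650235 on the minus strand of the same build, are shown because Cyr61 is a textbook target of YAP and TEAD. Capitals mark matches to CATTCC (the core of the TEAD element), to TGACG (the short form of a cAMP response element, here on the opposite strand as CGTCA) and to TATAAA (the TATA box).
Cyr61 promoter: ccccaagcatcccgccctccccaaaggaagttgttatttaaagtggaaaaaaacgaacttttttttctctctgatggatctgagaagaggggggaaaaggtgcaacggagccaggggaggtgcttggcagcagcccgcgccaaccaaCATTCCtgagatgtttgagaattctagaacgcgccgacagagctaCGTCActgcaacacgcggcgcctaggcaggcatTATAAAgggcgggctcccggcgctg

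These matches begin 103, 58 and 25 bases before the start. Both strands were searched. Of 32851 promoter windows of the same length, 12.6% held CATTCC, 17.8% TGACG and 12.4% TATAAA on either strand. CAGAC, the SMAD motif, and CACGTG, an E box, had 0 matches in this window and were held by 42.2% and 6.02% of windows. The CArG box of SRF likewise had 0 matches and was held by 1.47%. No match overlaps another. A match is a run of letters and was not tested as a binding site.

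No CCN gene differed between the genotypes beyond the spread between mice. With limma, 0 of the 4 genes passed an adjusted p of 0.05 over all genes tested, and 0 of 8146 genes passed (0%; smallest adjusted p 0.983). At an unadjusted p under 0.05 there were 0 of 4 CCN genes and 339 of 8146 genes (4.16%). The genotypes overlapped in all 4, whereas they were fully separate in 2.61% of all genes. Differences below are heterozygote minus wild type on the normalized log2 intensity scale, with 95% intervals. In bulk tissue, fewer cells of a type and less RNA per cell cannot be told apart.

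Heterozygote 3 and wild type 2 bear on several results and are described first. The array of heterozygote 3 correlated less with the others (mean Pearson r 0.950 over the genes tested) than any other array (0.972 to 0.978), and had the most probes detected at a detection p under 0.01, 11545 against 10094 to 10809. Cardiomyocyte markers were high in every mouse, with a mean of 9 genes between 12.40 and 12.58 in heterozygotes and between 12.51 and 12.68 in wild types. The mean of 4 of 11 epicardial and mesothelial markers was 7.67 in heterozygote 3 and 7.71 in wild type 2, against 5.85 to 6.41 in the other 6 mice. The mean of 7 of 9 smooth muscle markers was 9.19 and 9.62 in the same mice, against 8.02 to 8.50 in the other 6. In heterozygote 3 the mean of 10 macrophage markers was also the highest, 8.10 against 6.84 to 7.33 in the other 7 mice. The mean of 7 of 9 adipocyte markers was 10.69 there, against 6.54 to 9.50 in the others. The mean of 2 of 10 airway and lung markers was 13.53 in heterozygote 3 and 12.77 in wild type 1, against 8.12 to 10.71 in the other 6. These were Lyz1, between 12.01 and 13.61 in all 8 mice, and Scgb1a1. Scgb1a1 was 13.44 and 12.99 in heterozygote 3 and wild type 1, against 4.24 to 8.99 in the other 6. This pattern thus rests mainly on 1 gene. The mean of 6 of 7 atrial markers, whose genes mark the neighbouring chamber, was 10.23 in heterozygote 3 and 10.18 in wild type 2, against 7.98 to 9.51 in the other 6. The main results are therefore given also without these 2 mice, a choice made after the data were seen.

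**Figure D1:**
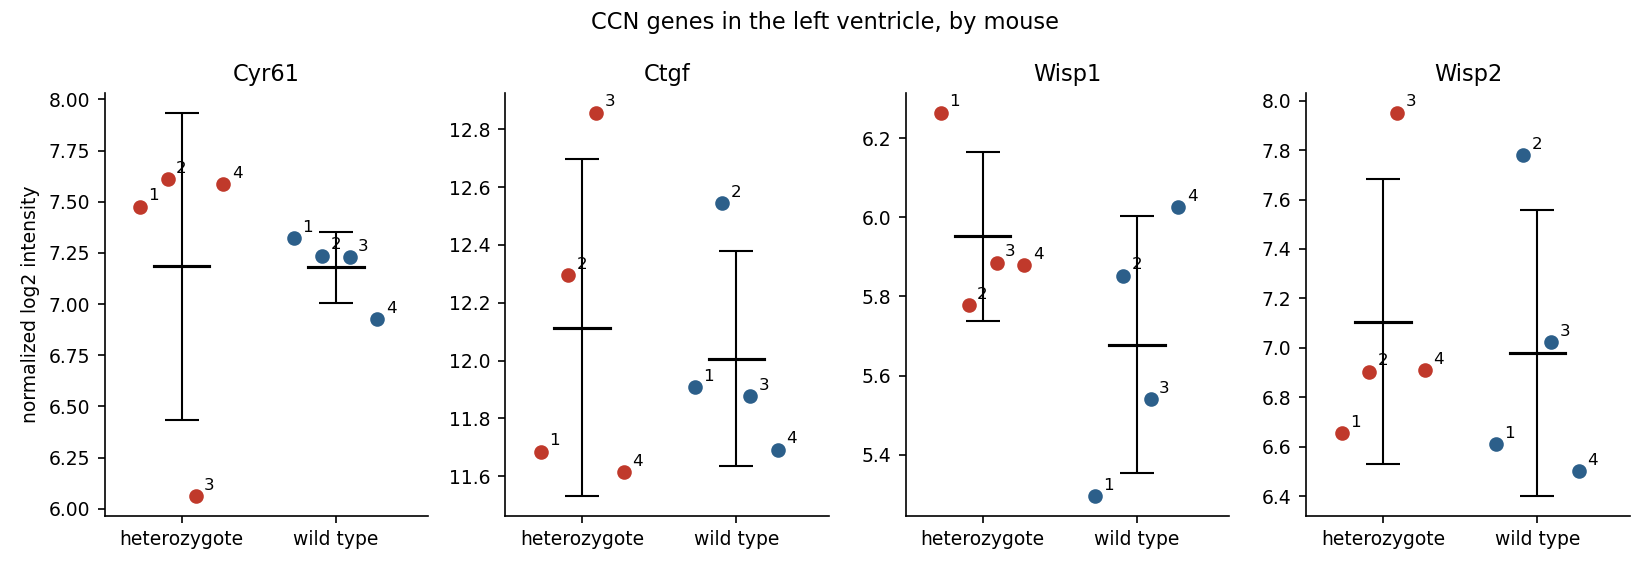
Normalized log2 intensity (vertical axis) of the brightest probe of each CCN gene in 4 heterozygotes (red, left) and 4 wild types (blue, right). Numbers are mouse numbers, thick bars the group mean and thin bars the SD. Heterozygote 3 is lowest for Cyr61 (6.06) and highest for Ctgf (12.86) and Wisp2 (7.95), and wild type 2 is second highest for Ctgf (12.55) and Wisp2 (7.78).

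Cyr61, a matricellular protein induced within minutes of growth factor or stretch signals, had 1 low mouse among the heterozygotes. On its brightest probe, ILMN_2794645, the deposited intensity was 169, 165, 62.9 and 210.0 in heterozygotes 1 to 4, against 102, 151, 138 and 91.1 in wild types 1 to 4. After normalization the values were 7.48, 7.61, 6.06 and 7.59 in heterozygotes, against 7.32, 7.24, 7.23 and 6.93 in wild types. Heterozygotes 1, 2 and 4 were the 3 highest of the 8 mice, and heterozygote 3 the lowest, at 0.417 of the median of the other mice. The means were therefore nearly equal, 7.18 ± 0.75 in heterozygotes and 7.18 ± 0.17 in wild types (SD, n = 4 each). The difference was 0.0047 (interval -0.70 to 0.71, adjusted p = 0.9999, limma).

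Without heterozygote 3 the Cyr61 difference was 0.38 (0.08 to 0.69) and all 3 remaining heterozygotes lay above all 4 wild types. Its unadjusted p was 0.0191 and its adjusted p 0.646 (limma), so it did not pass. In that fit 7.58% of 7940 genes had an unadjusted p under 0.05 and 8.29% were fully separate, so such a value was common there. Without heterozygote 3 and wild type 2 the difference was 0.405 (0.07 to 0.74, adjusted p = 0.510, limma), in a fit where 0.0129% of 7745 genes passed after adjustment, 9.46% had an unadjusted p under 0.05 and 15.6% were fully separate.

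The other Cyr61 probes did not repeat this pattern in full. Probe ILMN_1235571, detected on 8 of 8 arrays, had deposited intensities of 26.9, 24.5, 13.5 and 41.5 in heterozygotes, against 30.5, 28.4, 17.4 and 19.9 in wild types. Heterozygote 3 was again the lowest mouse, but wild type 1 was the highest after normalization (5.86). Its order of mice followed that of the brightest probe (Spearman 0.762, Pearson 0.785, 8 mice). Probe ILMN_2710253, detected in 2 of 4 heterozygotes and 4 of 4 wild types, had 10.9, 19.4, 16.6 and 6.60 in heterozygotes, against 19.0, 20.5, 15.6 and 17.3 in wild types. It did not follow the brightest probe (Pearson 0.058, Spearman 0.00). Over all probes the differences were -0.05 (-0.61 to 0.50) and -0.30 (-0.67 to 0.06), with adjusted p of 0.993 and 0.973 (limma). The estimates of the 3 probes thus ran from -0.30 to 0.0047, with every interval covering 0. The mean over the 3 probes, which weighs them equally, gave -0.12.

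**Figure D2:**
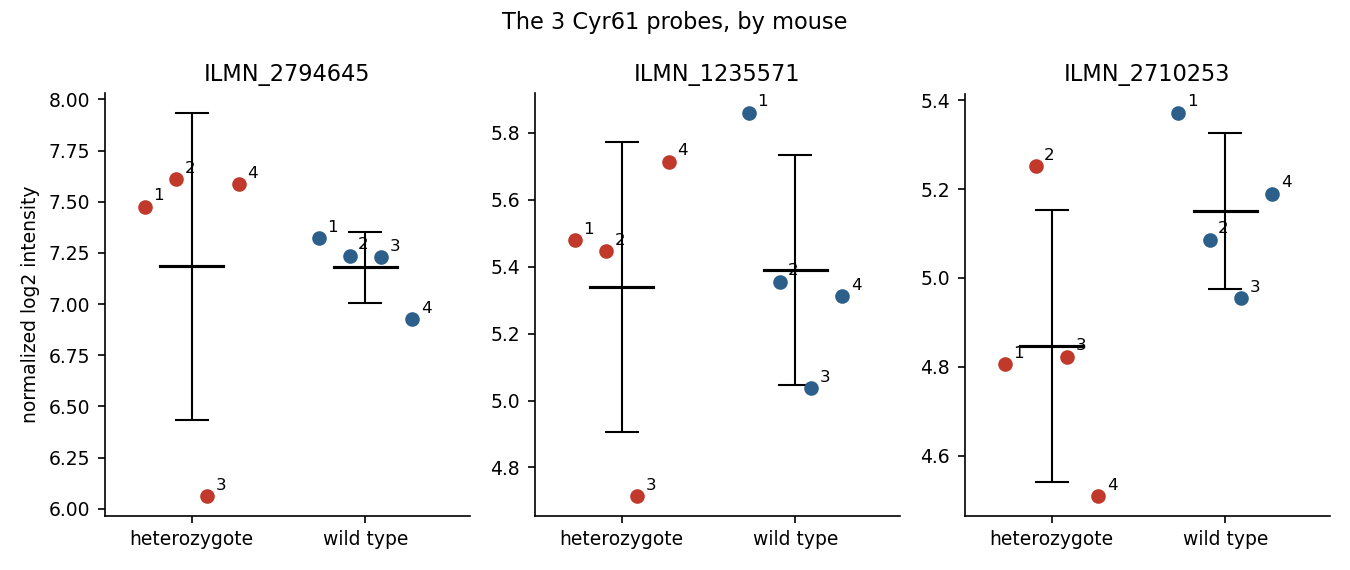
Normalized log2 intensity (vertical axis) of the 3 Cyr61 probes in 4 heterozygotes (red, left) and 4 wild types (blue, right), numbered by mouse, with group mean and SD. Heterozygote 3 is the lowest mouse on the first 2 probes (6.06 and 4.71), and heterozygote 4 on the third (4.51).

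Ctgf, the CCN member most used as a fibrosis marker, was detected in all 8 mice with overlapping genotypes. Its deposited intensity was 3739.7, 4737, 6439.7 and 3727 in heterozygotes 1 to 4, against 2898, 6458, 3946 and 3011 in wild types 1 to 4. Heterozygote 3 and wild type 2 were the highest mouse of their genotype. The normalized means were 12.11 ± 0.58 in heterozygotes and 12.01 ± 0.37 in wild types (SD, n = 4 each), a difference of 0.11 (-0.54 to 0.75, adjusted p = 0.999, limma). As a fold this is 1.08, with an interval of 0.689 to 1.68. Without heterozygote 3 the difference was -0.14, without wild type 2 it was 0.29, and without both 0.04 (-0.40 to 0.48).

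Wisp1, the Wnt-induced member, had the largest difference of the 4 genes with all 8 mice, and it did not pass the test. The brighter of its 2 probes, ILMN_2492264, had deposited intensities of 60.5, 34.6, 54.2 and 48.7 in heterozygotes, against 17.6, 47.9, 31.9 and 41.9 in wild types. Heterozygote 1 was the highest mouse and wild type 1 the lowest, while wild type 4 (6.03 after normalization) lay above heterozygotes 2, 3 and 4. The means were 5.95 ± 0.21 in heterozygotes and 5.68 ± 0.33 in wild types (SD, n = 4 each), a difference of 0.27 (-0.14 to 0.69, adjusted p = 0.983, limma) or a fold of 1.21 (0.907 to 1.61). With 1 mouse left out it stayed positive, between 0.15 and 0.39. It was not the largest without heterozygote 3 (0.30 against 0.38 for Cyr61), without wild type 2 (0.33 against 0.39 for Wisp2) or without both (0.35 against 0.405 for Cyr61). Without heterozygote 1, its highest mouse, it was also smaller than Wisp2 and Ctgf (0.17 against 0.27 and 0.25). The second Wisp1 probe, ILMN_2453775, was not detected in any mouse (lowest detection p 0.0138), so it does not bear on the difference.

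Wisp2, which lacks the C-terminal domain, showed the same pair of high mice as Ctgf. Its deposited intensity was 86.4, 93.7, 251 and 123 in heterozygotes 1 to 4, against 58.4, 226, 119 and 63.5 in wild types 1 to 4. Heterozygote 3 stood 2.07-fold and wild type 2 stood 1.83-fold above the median of the other mice after normalization. The remaining 6 mice lay between 6.50 and 7.02, with the genotypes interleaved. The means were 7.11 ± 0.58 in heterozygotes and 6.98 ± 0.58 in wild types (SD, n = 4 each), a difference of 0.13 (-0.62 to 0.87, adjusted p = 0.999, limma). Without heterozygote 3 it was -0.16, without wild type 2 it was 0.39, and without both 0.11 (-0.28 to 0.51).

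**Figure D3:**
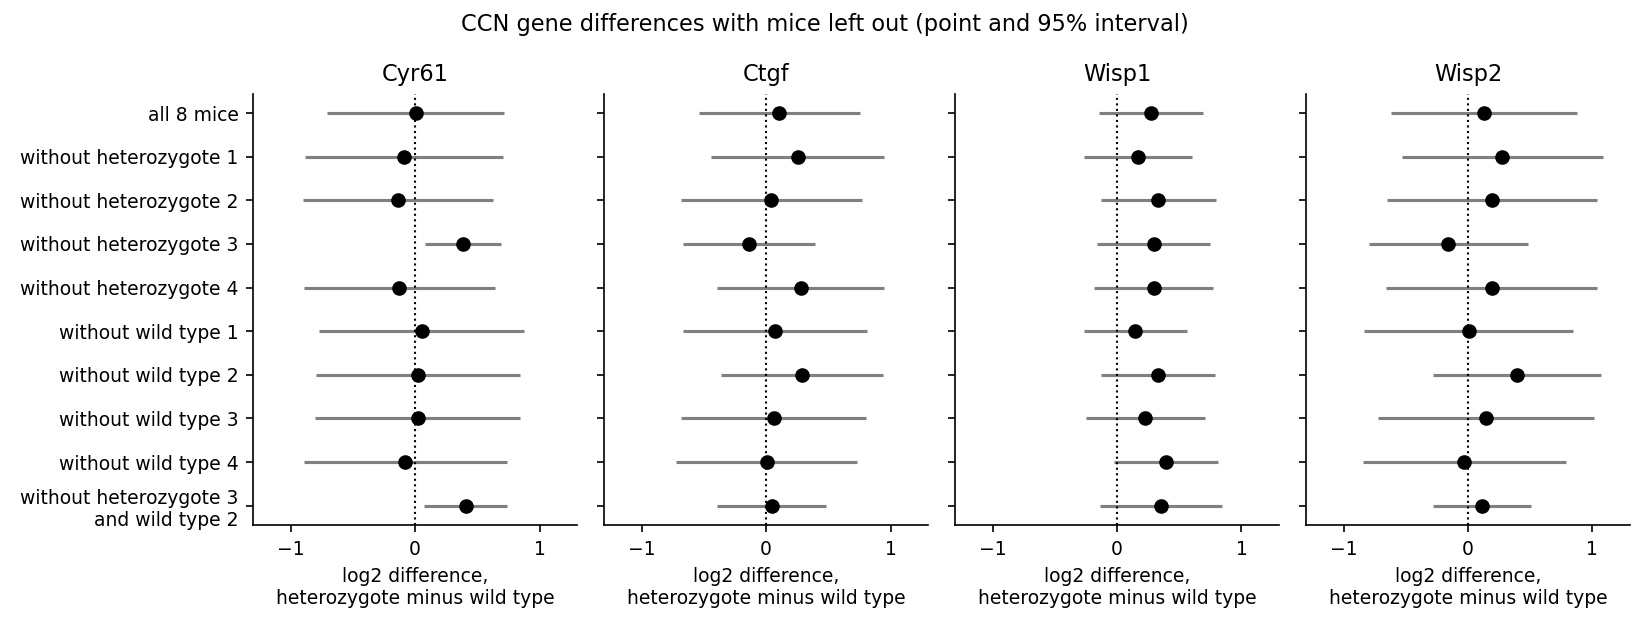
Log2 difference, heterozygote minus wild type (horizontal axis), of the 4 CCN genes with all 8 mice and with mice left out (rows). Points are limma estimates and lines 95% intervals. The interval for Cyr61 lies above 0 only in the fits that leave out heterozygote 3 (0.38 and 0.405), neither of which passed after adjustment, and Wisp1 is the gene whose estimate stays above 0 in every fit drawn.

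The genes were compared with one another over the 8 mice in 6 pairs. Ctgf and Wisp2 varied together (Pearson r = 0.88, exact permutation p = 0.0076, adjusted over the pairs 0.0454), but their rank correlation did not pass (Spearman 0.55, exact permutation p = 0.171, adjusted 0.798). The relation rests on heterozygote 3 and wild type 2, since without these mice r was 0.33 over 6 mice. Cyr61 had negative correlations with Ctgf (r = -0.62, exact permutation p = 0.0894, adjusted 0.224) and Wisp2 (r = -0.59, p = 0.112, adjusted 0.224, exact permutation). Without the 2 mice farthest from the Cyr61 median these were -0.30 and -0.45, and without heterozygote 3 alone they were 0.06 and 0.06. Wisp1 followed none of the others, with r of -0.07 for Cyr61, -0.09 for Ctgf and 0.03 for Wisp2 (exact permutation p between 0.844 and 0.944).

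Ctgf and Wisp2 also correlated with the mean of fibroblast markers, a list that holds no CCN gene, and with several other lists. The mean of 11 of 12 fibroblast markers, among them Dcn (decorin), Pdgfra, Col1a1 and Col3a1, was 8.27, 8.47, 8.82 and 8.35 in heterozygotes 1 to 4, against 8.41, 8.56, 8.43 and 8.17 in wild types 1 to 4. Heterozygote 3 and wild type 2 were again the highest. Ctgf correlated with this mean at r = 0.92 (exact permutation p = 4e-04, adjusted 0.0206 over 52 relations of 4 genes with 13 lists, a family added after the data were seen) and Spearman 0.88 (p = 0.0072, adjusted 0.0941, exact permutation). Wisp2 correlated at r = 0.90 (exact permutation p = 0.0011, adjusted 0.0267) and Spearman 0.83 (p = 0.0154, adjusted 0.160, exact permutation). Over the 6 mice other than heterozygote 3 and wild type 2 the correlations were 0.73 for Ctgf and 0.71 for Wisp2 (exact permutation p = 0.101 and 0.115). Among the 11 markers Gsn (gelsolin) had the largest SE of the genotype difference (0.57). In these 6 mice it was 5.52, 8.06 and 5.56 in heterozygotes 1, 2 and 4, against 8.31, 7.71 and 7.30 in wild types 1, 3 and 4. Gsn alone may thus weigh heavily on the marker mean, and correlations without Gsn were not computed. Wisp2 also passed against the TGF-beta list (r = 0.94, adjusted p = 0.0267, Spearman 0.88, adjusted 0.0941, exact permutation; 0.64 over the same 6 mice). Cyr61 and Wisp1 passed with no list, with fibroblast correlations of -0.61 and -0.23 (exact permutation adjusted p = 0.264 and 0.700). Over the same 6 mice these were 0.61 and -0.67 (exact permutation p = 0.200 and 0.140, not adjusted), so the Cyr61 value changed sign.

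Other lists gave correlations of similar size that did not pass after adjustment over the same 52 relations. Wisp2 had r = 0.94 with SRF genes (exact permutation p = 0.0046, adjusted 0.058), and 0.83 over the 6 mice other than heterozygote 3 and wild type 2. Its r was 0.90 with epicardial, 0.88 with smooth muscle and 0.75 with macrophage markers (adjusted exact permutation p = 0.136 each), and -0.25, 0.23 and 0.35 over those 6 mice. The epicardial and smooth muscle values were thus no longer high without these mice. Ctgf had r = 0.88 with TGF-beta genes, 0.81 with SRF genes and 0.75 with YAP and TEAD targets (adjusted exact permutation p = 0.058, 0.136 and 0.136), and 0.33, 0.23 and 0.57 over those 6 mice. Its r was 0.78 with epicardial, 0.72 with smooth muscle and 0.69 with macrophage markers (adjusted exact permutation p = 0.168, 0.191 and 0.193), and -0.54, -0.36 and -0.15 over those 6 mice. With atrial markers r was 0.48 for Ctgf and 0.58 for Wisp2 (adjusted exact permutation p = 0.364 and 0.264), and -0.76 and -0.83 over the 6 mice. Over the same 6 mice Ctgf had -0.96 with adipocyte markers and 0.87 with endothelial markers (exact permutation p = 0.0056 and 0.0236, not adjusted), both farther from 0 than its 0.73 with fibroblast markers. With all 8 mice these were 0.21 and 0.59. Cyr61 had negative correlations with macrophage (-0.69), adipocyte (-0.68), atrial (-0.68), airway (-0.63), epicardial (-0.58) and smooth muscle (-0.53) markers, none past adjustment (smallest adjusted exact permutation p = 0.193). Over the 6 mice its r was 0.81 with macrophage and 0.46 with epicardial markers. Its r stayed negative with atrial (-0.59), smooth muscle (-0.48), adipocyte (-0.21) and airway (-0.21) markers. With immediate early genes its r was -0.03 over all 8 mice and 0.80 over the 6 (exact permutation p = 0.0542, not adjusted). Differences between lists were not tested.

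**Figure D4:**
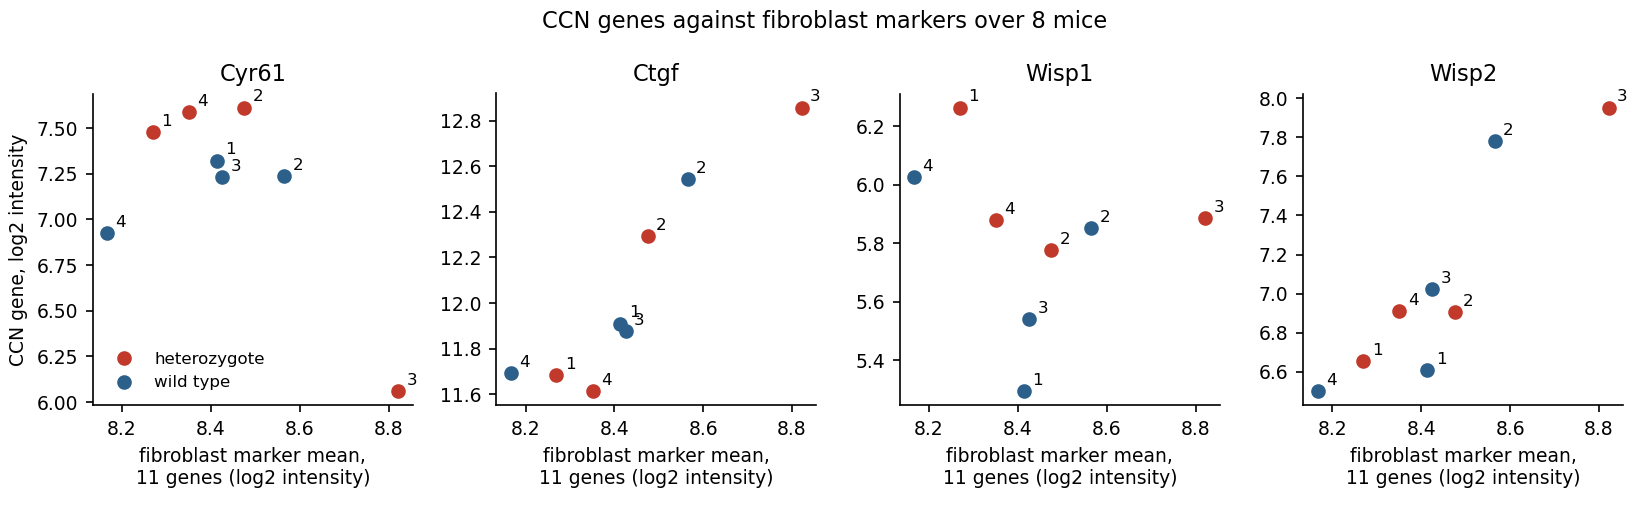
Normalized log2 intensity of each CCN gene (vertical axes) against the mean of 11 fibroblast markers (horizontal axes) in 4 heterozygotes (red) and 4 wild types (blue), numbered by mouse. Ctgf and Wisp2 are higher where the marker mean is higher, with heterozygote 3 (8.82) and wild type 2 (8.56) at the upper end, and heterozygote 3 alone is low for Cyr61.

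For each CCN gene, the 3 genes most like it by Pearson r over the 8 mice were drawn from all genes tested, so high values arise by selection and carry no test. For Cyr61 they were Slc25a11 (the mitochondrial oxoglutarate carrier, r = 0.98, Spearman 0.86), Rasl10b (0.98, 0.83) and Igf2r (a receptor that clears insulin-like growth factor, 0.97, 0.95). For Ctgf they were Ap2b1 (an adaptor of clathrin coats, 0.98, Spearman 0.95), Srrm2 (a splicing factor, 0.96, 0.98) and Chd4 (a chromatin remodeller, 0.96, 0.81). For Wisp1 they were Akap8 (0.97, Spearman 0.98), Phactr1 (0.96, 0.90) and Smad1 (a BMP signal transducer, 0.96, 0.98). For Wisp2 they were Pnp (purine nucleoside phosphorylase, 0.99, Spearman 0.95), Adamts2 (which trims procollagen, 0.99, 0.95) and Vasn (a TGF-beta binding protein, 0.97, 0.83). Without the 2 mice farthest from the median of the CCN gene, r stayed between 0.72 (Rasl10b) and 0.96 (Ap2b1) for these 12 genes.

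No listed gene of the pathways tied to CCN gene control passed the test either. The lists hold genes that promote and genes that restrain these pathways, and pathway activity was not measured. Of all genes 53.1% were higher in heterozygotes, with a median difference of 0.01. YAP and TEAD target genes had 13 of 20 measured, 6 higher and 7 lower, with 0 past the test and a median of -0.05. Among them Asap1 differed by 0.27, Crim1 by -0.36, Igfbp3 by -0.36 and the cardiac stress gene Ankrd1 by -0.06 (-0.37 to 0.26). Hippo pathway components had 9 of 19 measured, 6 higher and 3 lower, with 0 past the test and a median of 0.20. Vgll4, which competes with YAP for TEAD factors, differed by 0.47 (0.07 to 0.86, adjusted p = 0.983, limma), and the kinases Stk3 and Stk4 by -0.50 and 0.32. Yap1 itself differed by 0.13 (-0.33 to 0.60) and Wwtr1, which encodes TAZ, by -0.05 (-0.54 to 0.43), while the Tead1 probe was detected on 0 arrays.

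TGF-beta ligands and targets had 7 of 13 measured, 6 higher and 1 lower, with 0 past the test and a median of 0.12. Bhlhe40 differed by 0.29, Inhba by 0.17, Id1 by 0.13 and Tgfb1 by 0.02 (-0.43 to 0.48). Genes of the serum response factor SRF and its cofactors had 8 of 14 measured, 2 higher and 6 lower, with 0 past the test and a median of -0.13. Vcl (vinculin) differed by -0.29, Cnn2 by 0.28 and Actb by 0.34. Immediate early genes, the class Cyr61 belongs to, had 11 of 16 measured, 7 higher and 4 lower, with 0 past the test and a median of 0.06. Klf4 differed by 0.26, Junb by 0.41, Dusp1 by -0.23, Fos by 0.04 and Egr1 by -0.17. Wnt targets and feedback genes had 4 of 15 measured, 3 higher and 1 lower, with 0 past the test and a median of 0.14. Sfrp1 (a secreted Wnt antagonist) differed by 0.27, Axin2 by 0.22 and Dkk3, which is also on the atrial list, by -0.20.

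Receptors and other matricellular genes gave no call. CCN receptors and binding partners had 8 of 14 measured, 3 higher and 5 lower, with 0 past the test and a median of -0.03. The integrin genes Itgb1, Itga5 and Itga6 differed by -0.29, 0.47 and 0.30. Other matricellular genes had 9 of 15 measured, 7 higher and 2 lower, with 0 past the test and a median of 0.12. Spp1 (osteopontin), the gene with the widest difference in that list, had 4.88, 5.45, 6.19 and 8.27 in heterozygotes 1 to 4, against 5.64, 5.15, 4.83 and 4.75 in wild types 1 to 4. Heterozygote 4 stood highest and heterozygote 1 lay below wild types 1 and 2. Its difference was 1.11 (-0.24 to 2.46, adjusted p = 0.983, limma). Tnc (tenascin-C) differed by 0.24 and Tnxb by 0.23, and the probes of Thbs1, Thbs4, Postn and Fbln5 were detected on 0 arrays.

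The cell type lists leaned in both directions. Macrophage markers had 10 of 10 measured genes higher (median 0.35), epicardial markers 4 of 4 (0.19) and adipocyte markers 5 of 7 (0.61). The 2 airway markers were both higher (0.22). Lower were 8 of 9 cardiomyocyte (-0.12), 6 of 7 smooth muscle (-0.23), 5 of 6 atrial (-0.27) and 7 of 9 endothelial markers (-0.11). In each of these lists 0 passed the test. Fibroblast markers had 10 of 11 measured genes higher and 1 lower, with 0 past the test and a median of 0.16. Among them Htra3 (a secreted serine protease) differed by 0.36, Fap (fibroblast activation protein) by 0.45 and Tcf21 (a transcription factor of the fibroblast lineage) by 0.32, and the lower gene was Gsn (gelsolin) at -0.91, named after its value was seen.

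Several list medians depended on the scaling or on single mice. Scaling each array to the same median moved the median over all genes to 0.16, and the medians then were 0.12 for YAP and TEAD targets, 0.04 for SRF genes and 0.11 for CCN receptors, none above that shift. The fibroblast median was -0.0021 without heterozygote 3, 0.26 without wild type 2 and 0.21 without both. The TGF-beta median was -0.01 without heterozygote 3, 0.20 without wild type 2 and 0.12 without both. Both medians were lower without heterozygote 3 and higher without wild type 2. The immediate early median was -0.0060 without heterozygote 3, 0.21 without wild type 2 and 0.16 without both. The median of other matricellular genes was 0.0553 without heterozygote 3, 0.35 without wild type 2 and 0.33 without both, and -0.01 without wild type 1. The Hippo median stayed positive, at 0.0949, 0.22 and 0.0857 in the same order of mice left out, as did the Wnt median at 0.13, 0.28 and 0.22. The YAP and TEAD target median was -0.0294 without heterozygote 3, 0.0604 without wild type 2 and 0.0362 without both. The SRF median was -0.15, 0.14 and -0.0761 in the same order. The receptor median was 0.0442, -0.0036 and -0.0079, and 0.0544 without wild type 1.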

How the data were processed

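The authors deposited Illumina bead intensities, background-subtracted per the file's values (23.0% to 27.2% of probes lie below 0), with a detection p-value per probe, per the file headers, and a second table of normalized intensities for which the sources used here name no method. RNA was isolated with a fibrous tissue kit and labelled as biotinylated cRNA, per the labels' protocols. Sex and scan batch are not given in the sources.

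From the deposited intensities, background was corrected by normexp with detection p-values (offset 16), followed by quantile normalization and log2 (R 4.3.3, limma 3.58.1). A probe was kept if 4 or more of the 8 arrays detected it with p below 0.01, which left 10547 of 25697, and the brightest probe stood for each of 8146 genes. Genotypes were compared with lmFit and eBayes, two-sided, with Benjamini-Hochberg adjustment at 0.05. Correlations used exact two-sided permutation of pairings, enumerated in Python 3.11.15, with ranks from scipy 1.17.1. On simulated data for this comparison the fit recovered 8% of 50 genes at a log2 change of 0.5, 62% at 1, 90% at 1.5 and 96% at 2, with 4 false calls. The changed genes were drawn at random from all genes, with independent noise. The median SE over all genes was 0.177, against 0.32 for Cyr61, 0.29 for Ctgf, 0.19 for Wisp1 and 0.33 for Wisp2. Recovery at the spread of the CCN genes was not simulated. The number of arrays limits the precision. Named genes were all CCN probes, the list genes with the smallest p (at most 3 a list), a few pathway genes and the 3 genes most like each CCN gene, plus 1 fibroblast marker named after its value was seen. Members and lists were chosen with earlier results of these data known. The altered gene and 1 list gene are not reported here. Older symbols were matched to RefSeq names.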

Additional observations from a re-analysis of the deposited data

Results flagged for a closer look

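In 42 groups of 4 mice, 4 held a mouse that stood apart by Dixon's test at the 95% critical value, where chance would give 2.1. Cyr61 in heterozygote 3 was 6.06, with the other heterozygotes between 7.48 and 7.61. The other 3 concern wild type 2. Its mean over other matricellular genes was 7.71, with the other wild types between 7.03 and 7.08. Its smooth muscle marker mean was 9.62, with the others between 8.29 and 8.50. Its epicardial and mesothelial marker mean was 7.71, with the others between 5.85 and 6.04.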

How the results depend on the processing

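Of the 4 CCN genes 0 passed in any of 20 alternatives, and the same held for the genes of the lists. Adjusted p in limma ranged from 0.510 to 0.9999 for Cyr61, 0.791 to 0.9999 for Ctgf, 0.403 to 0.9999 for Wisp1 and 0.815 to 0.9999 for Wisp2. Wisp1 stayed positive in all 20. Averaging the detected probes gave -0.12 for Cyr61, and array weights gave -0.16 for Ctgf and -0.0567 for Wisp2. With 1 mouse left out the differences ranged from -0.14 to 0.38 for Cyr61, -0.14 to 0.29 for Ctgf, 0.15 to 0.39 for Wisp1 and -0.16 to 0.39 for Wisp2. Over all genes, 1 passed (Slc4a1, an erythroid anion exchanger, named after its value was seen; 1.40, SE 0.126, adjusted p 0.0220, limma) without heterozygote 3 and wild type 2, and 0 in the other alternatives. Genes under 0.05 before adjustment numbered 339, against 797 with no detection filter, 1042 with array weights, 222 with the replicate block, 733 without heterozygote 3 and wild type 2, and 220 to 602 with 1 mouse left out. With the mouse number as a replicate block the differences were 0.0047 for Cyr61, 0.11 for Ctgf, 0.27 for Wisp1 and 0.13 for Wisp2, each with adjusted p 0.9999 (limma), and 0 genes passed. The deviations of same-numbered mice from their genotype means correlated at -0.22, -0.25, -0.46 and 0.21, so the numbers were not treated as pairs.

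The count of correlated pairs was 1, and 0 with the authors' normalized values (Ctgf with Wisp2 r = 0.88), after centring on genotype means (0.88), and without heterozygote 3 and wild type 2 (0.33). It was 0 to 1 with 1 mouse left out, and 1 only without heterozygote 4. Signs turned for Ctgf with Wisp1 under cyclic loess (0.0428) and median scaling (0.41), and for Cyr61 with Wisp1 under median scaling (0.12). They also turned without heterozygote 3 and wild type 2, an alternative added after seeing the data, for Cyr61 with Ctgf (0.32), Wisp1 (0.0445) and Wisp2 (0.53), and for Wisp1 with Wisp2 (-0.26; -0.0395 when centred). With 1 mouse left out r ranged from -0.75 to 0.0571 for Cyr61 with Ctgf, -0.29 to 0.0296 for Cyr61 with Wisp1, -0.75 to 0.0608 for Cyr61 with Wisp2, -0.26 to 0.16 for Ctgf with Wisp1, 0.78 to 0.93 for Ctgf with Wisp2 and -0.31 to 0.27 for Wisp1 with Wisp2. The fibroblast relation stayed past its adjusted threshold in 12 of 17 alternatives for Ctgf and 8 of 17 for Wisp2. The causes were not tested.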
